A study of Mus musculus with 4 samples.

Results

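Gpnmb-high macrophages are a small set of complement-rich phagocytes from mouse glioma, picked here by the counts of a few genes per cell. A cell was a member when it had at least 500 detected genes and under 10% mitochondrial UMIs (unique molecular identifiers, 1 per captured RNA molecule). It also needed at least 30 UMIs of C1qa, C1qb and C1qc together and at least 5 of Gpnmb. It could carry fewer than 2 UMIs of the homeostatic microglia genes P2ry12, Tmem119, Crybb1 and Sall1, fewer than 4 of the hypoxia genes Hilpda, Ndrg1 and Egln3, and none of the lymphocyte genes Cd3e and Cd79a. The rule found 69 members among 13960 barcodes, 49 in WT and 20 in CaMKK2 KO mice. Of these, 58 could be assigned to a single mouse, 40 WT and 18 CaMKK2 KO, and all values below come from them unless stated. They were compared with the 1144 assigned cells that passed every condition but that on Gpnmb, called the other C1q-gated macrophages.

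The cells were live and CD45+ and came from brains bearing CT2a glioma, taken on day 14 after implantation from 4 mice of each genotype, WT and CaMKK2 KO. The mice were adult females on the C57Bl/6 background, matched in age. All 8 carried the tumor, and the CaMKK2 KO mice carried the deletion of Camkk2 in the germline, so that no cell type was singled out by it. Each mouse had its own hashtag antibody, and 1 10X library held all 4 mice of a genotype, so genotype and library cannot be told apart. The 2 libraries had 42 cell barcodes in common. Camkk2 stood at 27.3, 28.3, 35.8 and 27.5 CPM (UMIs of the gene per 1e+06 UMIs) over all cells of WT mice 1 to 4, and at 14.0, 17.0, 13.1 and 22.4 CPM in CaMKK2 KO mice 1 to 4. The genotypes did not overlap (29.7 ± 4.05 against 16.6 ± 4.19, SD, n = 4, two-sided exact permutation p = 0.0286, the smallest this design can give). Camkk2 transcript was thus lower but still counted in every CaMKK2 KO mouse, and the files do not show which part of the gene the UMIs came from. Among the members, Camkk2 had 1, 2, 4 and 12 UMIs in the WT mice and 1, 0, 1 and 0 in the CaMKK2 KO mice.

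Gpnmb encodes a membrane glycoprotein of lysosomes and melanosomes that macrophages make when their lysosomes are loaded with lipid or debris. Macrophages with Gpnmb, Fabp5, cathepsins, Cd63, Cd9, Trem2 and Lgals3 have been described as lipid-associated in fat and atherosclerotic plaque, and a related program in brain microglia is called disease-associated. Lysosomal genes are switched on by the MiT/TFE transcription factors, which bind E-box motifs with the core CACGTG.

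The label of lipid-associated macrophages was checked on its markers, as a description, since the cells were chosen on the same counts. Gpnmb (chromosome 6, 49036546 to 49070929, mm10), the gene of the rule, reached 5 to 126 UMIs per member with a median of 16. Fabp5, a fatty acid carrier, was at 3712, 3515, 1387 and 1785 CPM in the members of WT mice 1 to 4 and at 4339, 2303, 675 and 1564 CPM in those of CaMKK2 KO mice 1 to 4. In the other macrophages it was at 69.0 to 224 CPM. Ctsd, a lysosomal aspartyl protease, stood at 8902, 11411, 2668 and 2799.9 CPM in the members of WT mice 1 to 4. In those of CaMKK2 KO mice 1 to 4 it stood at 5564, 2639.5, 3461 and 1706 CPM, against 568 to 978 CPM in the other macrophages. Syngr1, a vesicle membrane protein, was at 112 to 674 CPM against 8.14 to 55.5. For Fabp5, Ctsd and Syngr1 every mouse's members lay above every mouse's other macrophages.

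Igf1 and Ctsk were not shared by most members. Igf1, a growth factor, was detected in 16 of 58 members and was at 0 in those of CaMKK2 KO mice 2 and 4. Ctsk, a collagen-degrading cathepsin best known from osteoclasts, was detected in 7 members and was at 0 in 4 of the 8 mice. Lpl, which frees fatty acids from lipoproteins, was found in 6 members, and Fabp4, a second fatty acid carrier, in 7. By contrast, Ctsd was detected in all 58 members, Fabp5 in 53 and Syngr1 in 47, whereas Igf1, Ctsk, Lpl and Fabp4 came from a few of them.

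**Figure D1:**
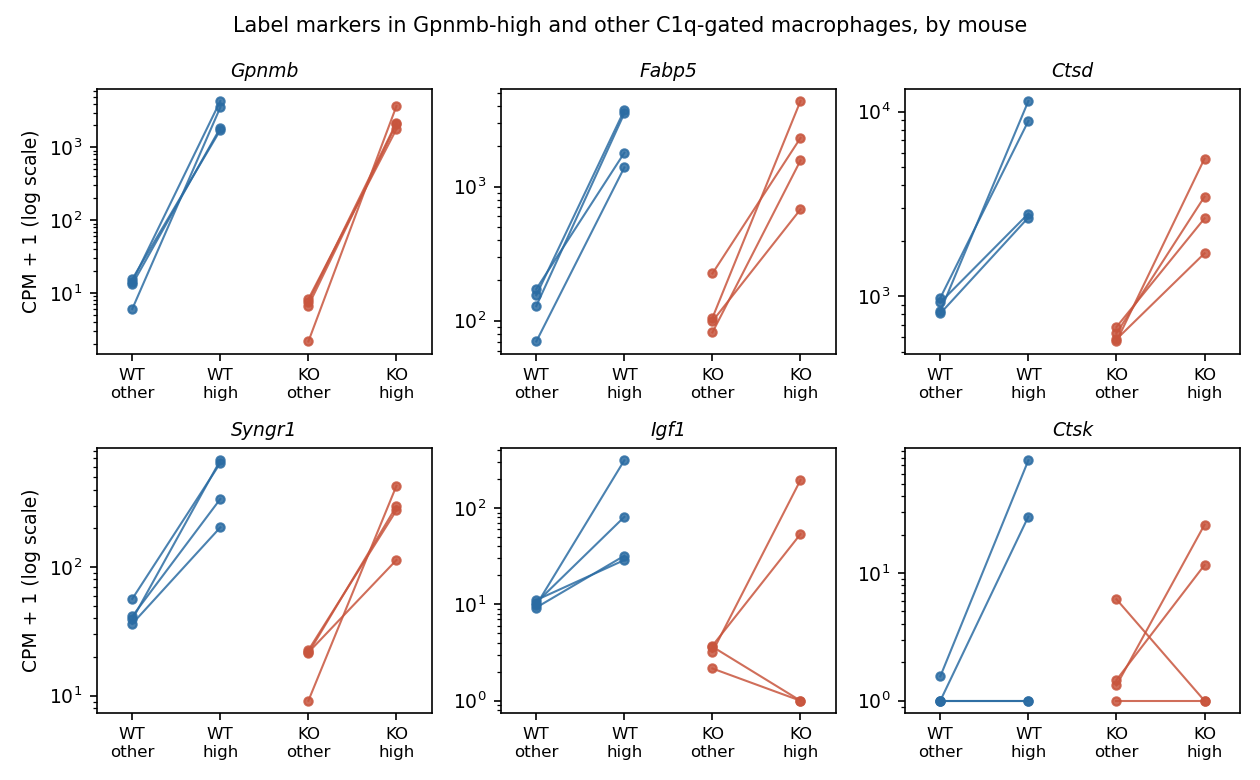
Level of the 6 label markers in CPM plus 1 (log scale) in the summed cells of each mouse. Lines join the other C1q-gated macrophages (other) and the Gpnmb-high cells (high) of 1 mouse, with WT in blue and CaMKK2 KO in red. Fabp5, Ctsd and Syngr1 rise in all 8 mice, and Igf1 and Ctsk lie at 0 in the members of some mice.

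All 10 general macrophage markers had UMIs in the members, and their summed level was 4282 to 6826 CPM over the 8 mice against 4828 to 6104 CPM in the other macrophages. Cd68, a lysosomal membrane protein, was the most abundant of them. Markers of several other cell types were also counted, and their part in the results was not tested. T and NK cell markers summed to 0 to 45.8 CPM, led by Gzma, with Cd8a and Ncr1 at 0, and stood at 17.7 to 98.3 CPM in the other macrophages. B cell markers summed to 0 to 167 CPM against 47.1 to 150.4, with Ms4a1 and Pax5 at 0, and the leading gene was Cd22 at a pooled 51.9 against 4.32 CPM. The 2 B cell markers tested against the other macrophages were lower, Ighm at -1.61 (edgeR adjusted p = 0.000927) and Cd79b at -1.44 (0.0239). Ighm was not called without the mouse as a block (0.0656). Cd79b was not called without the block (0.199), with DESeq2 (0.158) or in thinned cells (0.353). Dendritic cell markers summed to 0 to 24.1 CPM in 7 mice and to 223 CPM in WT mouse 1, against 9.09 to 38.7 CPM in the other macrophages, with Zbtb46, Xcr1 and Cd209a at 0. Their leading gene was Siglech, which is also among the microglia markers, at a pooled 6.92 against 2.13 CPM. WT mouse 1 had 3 members with 35834 UMIs. Neutrophil markers, led by Csf3r at a pooled 63.4 against 56.6 CPM and with Retnlg at 0, summed to 49.4 to 109 CPM in the other macrophages. In the members they were above that range in WT mice 1 and 2 (223 and 156 CPM) and CaMKK2 KO mouse 3 (274 CPM), and at 0 to 84.2 CPM in the remaining 5 mice. Neural and tumor markers summed to 0 to 120.4 CPM against 30.0 to 65.7, led by Mbp.

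Monocyte markers were not absent. Of 8 genes, 7 had UMIs in the members, led by Ly6c2 at a pooled 1225 CPM against 1216 in the other macrophages, while Vcan was at 0. These pooled values mix genotypes in unequal shares. The monocyte markers summed to 921, 806, 1170 and 1728 CPM in the members of WT mice 1 to 4, and to 1397, 2920 and 5086 CPM in those of CaMKK2 KO mice 1 to 3 and 4124 CPM in mouse 4. In the other macrophages they summed to 1393 to 2974 CPM in WT and 2767 to 6644 CPM in CaMKK2 KO mice, above the members of the same mouse in all but CaMKK2 KO mouse 3. Microglia markers summed to 569 to 2371 CPM against 521 to 1440, with ranges that overlapped, and of 5 microglia markers tested against the other macrophages, Olfml3 was higher (0.79, edgeR adjusted p = 0.0325). Olfml3 was not called with DESeq2, without the block or without WT mouse 1, 3 or 4 (adjusted p up to 0.323), and its direction turned when cells with homeostatic genes were admitted (-0.37). Of 8 border macrophage markers, 5 had UMIs, led by Ms4a7 at a pooled 993 against 667 CPM, while Lyve1, Cd163 and Cbr2 were at 0. Their sum was 427 to 1637 CPM against 645 to 1480 CPM. Of the 5 tested against the other macrophages, Pf4 was lower (-1.10, edgeR adjusted p = 0.00307) and none was higher, with a median of -0.97. Pf4 was not called with DESeq2 (0.068), in thinned cells (0.0597) or without the mouse as a block (0.419). No cells of T or B type reached 5 Gpnmb UMIs. A single Gpnmb UMI or more was seen in 3.11% of 1544 T cells (median depth 9268 UMIs), 0.271% of 369 B cells (4279 UMIs) and 7.17% of the other macrophages (13914 UMIs). The last share leaves out cells with 5 or more Gpnmb UMIs by the rule, a limit not set for T and B cells.

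Doublets by hashtag were more frequent among the members than among C1q-gated macrophages as a whole, at 18.4% against 9.54% in WT and 10% against 5.92% in CaMKK2 KO mice. Those cells were left out, but doublets of 2 cells from the same mouse cannot be seen by hashtag, and their part in the results was not tested beyond the removal of cells with top Scrublet scores. The members had a median of 14449 UMIs and 3311.5 genes, and the other macrophages 13913.5 UMIs and 3420 genes. Each mouse contributed 1 to 16 members and 7032 to 262155 UMIs. CaMKK2 KO mouse 4 had a single member with 7032 UMIs.

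Members differed among themselves in how much Gpnmb they held. Fewer than 10 UMIs were found in 17 of them, 22 had 10 to 29 and 19 had 30 or more, at similar median depths of 12126, 14473 and 15455 UMIs. As a description of pooled cells, Fabp5 was at 1082, 1104 and 3887 CPM over these 3 sets and Ctsd at 1849.6, 2687 and 7439.8 CPM. Ctsb, Cd63 and Trem2 were also highest in cells with 30 or more Gpnmb UMIs. Most of the members' Fabp4, Igf1, Lpl and Ctsk UMIs came from that set as well, with Fabp4 at 233 CPM there and at 0 below it. Around the threshold, the 19 cells with 3 to 4 Gpnmb UMIs had Fabp5 at 379.9 and Ctsd at 1483 CPM, and the 8 members with 5 to 6 had 810.3 and 1013 CPM. The cells just outside the rule therefore held some of the same transcripts.

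**Figure D2:**
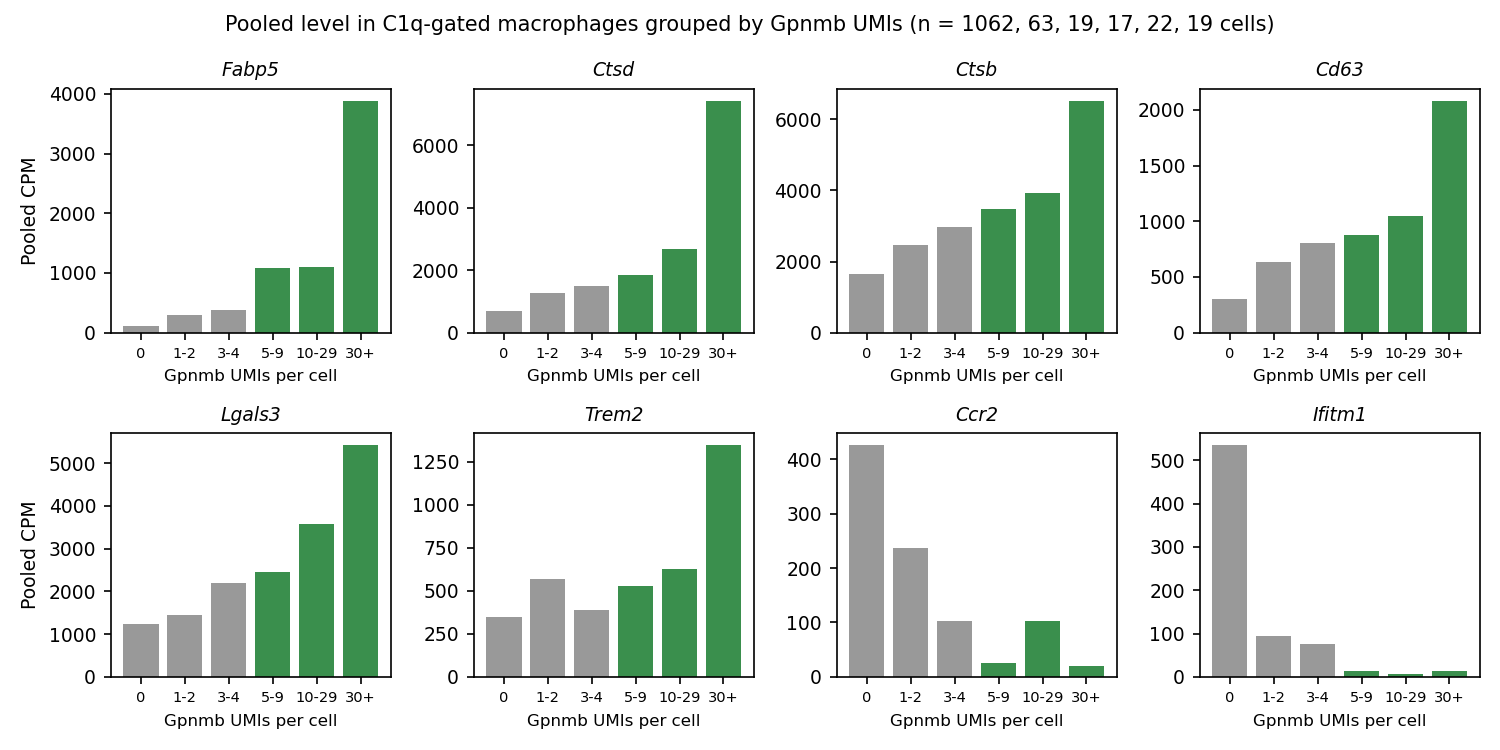
Pooled level (CPM) of 8 genes in C1q-gated macrophages grouped by the Gpnmb UMIs of the cell, with grey bars for the other macrophages and green bars for the members. Fabp5 goes from 117 CPM in cells without Gpnmb to 3887 CPM in cells with 30 or more Gpnmb UMIs, while Ccr2 goes from 427 to 19.2 CPM.

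The first question was whether loss of CaMKK2 changed how many of these cells there were. Of the C1q-gated macrophages, 3.16%, 4.58%, 11.2% and 7.69% were Gpnmb-high in WT mice 1 to 4, and 2.03%, 3.29%, 5.19% and 0.763% in CaMKK2 KO mice 1 to 4. WT mouse 3 was highest and CaMKK2 KO mouse 4 lowest, and the ranges overlapped. The means were 6.66% ± 3.57 and 2.82% ± 1.89 (SD, n = 4), a difference of -3.84 percentage points that did not pass a two-sided exact permutation test (p = 0.143). C1q-gated macrophages as a whole made up 10.0% ± 2.32 and 10.5% ± 2.47 of the cells (exact permutation p = 0.686). When each cell was thinned to 10000 UMIs, the shares were 7.15% and 2.17%, and the genotypes no longer overlapped (exact permutation p = 0.0286). Thinning left out 131 WT and 100 CaMKK2 KO macrophages that were shallower, among them 3 and 4 members. The only member of CaMKK2 KO mouse 4 was left out, so that the share of this mouse became 0%. CaMKK2 KO mouse 3 went from 5.19% to 3.15% and WT mouse 1 from 3.16% to 4.92%.

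Gpnmb was also present in the C1q cells that carried homeostatic microglia genes, which the rule leaves aside. At least 5 Gpnmb UMIs were found in 65 of 2489 such cells, or 2.61%. Over the 8 mice their mean share was 2.51% ± 1.56 (SD, n = 8), and that in the C1q-gated macrophages 4.74% ± 3.35, given with no test because the rule used both sets of genes. Those 65 cells had Fabp5 at 809 CPM and Ctsd at 3141 CPM, between the members (2104 and 4172 CPM) and the homeostatic cells as a whole (138 and 2128 CPM). Among the C1q cells with hypoxia genes, 7 of 141 had 5 or more Gpnmb UMIs.

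**Figure D3:**
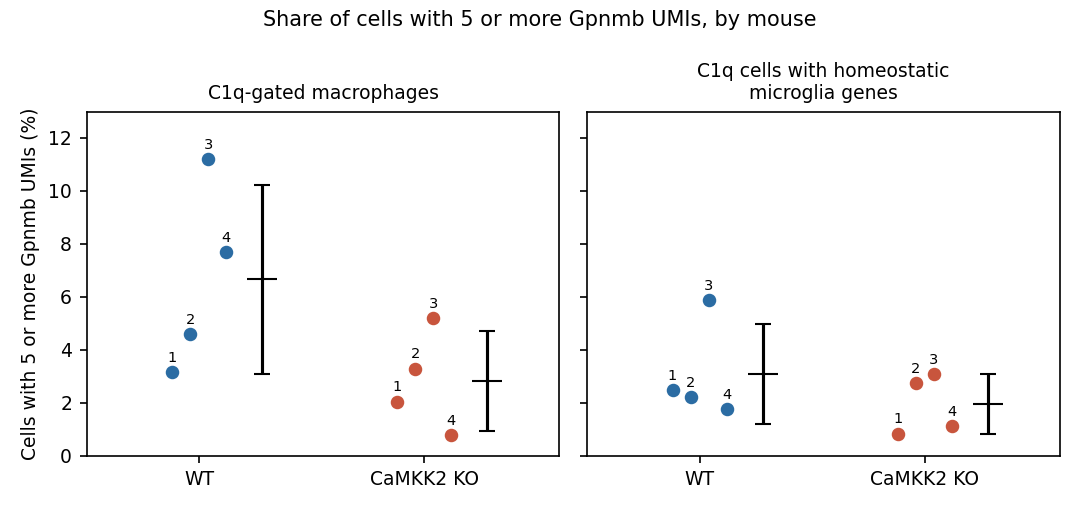
Percent of cells with 5 or more Gpnmb UMIs among C1q-gated macrophages (left) and among C1q cells with homeostatic microglia genes (right). Points are mice, numbered by hashtag, and bars give the mean and SD of 4 mice. The 2 genotypes overlap in both panels.

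The members were then compared with the other C1q-gated macrophages of the same mouse. UMIs were summed per mouse and cell group and tested with edgeR's quasi-likelihood method, with the mouse as a block and Benjamini-Hochberg adjustment over all genes. The genes of the rule and the 6 label markers were left out of the test. Of 7159 genes tested, 193 (2.7%) were higher and 267 (3.73%) lower in the members at an adjusted p under 0.05, 460 (6.43%) in all. Of these, 114 (1.59%) and 172 (2.4%) were at least 2-fold higher and lower, and 1292 genes (18%) had an unadjusted p under 0.05. The median log2 fold change over all tested genes was -0.15.

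Some lysosomal genes were higher in the members. Of the cathepsins and their partners, 12 were tested outside the label markers, 6 were higher and 1 lower, with a median log2 fold change of 0.49. Ctsb, a cysteine protease, was at 4716, 7258, 4428 and 4551 CPM in the members of WT mice 1 to 4 and at 6148, 3721, 3229 and 6542 CPM in those of CaMKK2 KO mice 1 to 4. In the other macrophages it was at 1304 to 2134 CPM, below every mouse's members. Its log2 fold change was 1.5 (SE 0.16, edgeR quasi-likelihood adjusted p = 1.2e-09). Psap, the precursor of the saposins that help degrade sphingolipids, was higher by 1.34 (SE 0.16), and the cathepsin inhibitor Cstb by 1.24 (SE 0.20). Ctsc, which activates serine proteases of granules, was lower, at -1.02 (SE 0.17, adjusted p = 2.58e-05).

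Of 36 tested lysosomal hydrolases and membrane proteins, 12 were higher and none lower, with a median of 0.44 and 86.1% of them above 0, against 35.0% of all tested genes. Among them, Cd63, a tetraspanin of late endosomes, rose by 1.85 (SE 0.18). The glycosidases Gla and Naglu rose by 1.61 (SE 0.23) and 1.51 (SE 0.26). Lipa, the acid lipase that frees cholesterol and fatty acids from lipoprotein lipids, rose by 1.32 (SE 0.25), although its members' level of 83.7 CPM in WT mouse 1 was below the 118 CPM of that mouse's other macrophages. Of 17 subunits of the vacuolar ATPase, the pump that acidifies lysosomes, 4 were higher, Atp6v1c1 the most at 1.02 (SE 0.21), and each lost its call under some setting. Atp6v1c1 did so when cells with homeostatic genes were admitted (adjusted p = 0.0614), Atp6v1a in thinned cells (0.0789) and Atp6v1g1 with TMM (0.14). Atp6v1e1 did so in thinned cells (0.0674) and without CaMKK2 KO mouse 1, 3 or 4 (up to 0.094). Of 12 MiT/TFE factors and regulators, Fnip2 and Sqstm1 were higher, and none was lower. Mitf itself was detected in 25 members and did not pass the test (0.93, adjusted p = 0.081). Sqstm1 lost its call with TMM scaling (adjusted p = 0.0545), with DESeq2 (0.111) and in thinned cells (0.359). It also lost it without CaMKK2 KO mouse 1, WT mouse 3 or WT mouse 4, with an adjusted p of up to 0.262 in these 3 fits.

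The E-box CACGTG was looked for in the promoters of these genes because it is the motif of the MiT/TFE factors. RefSeq promoters (GRCm38.p6) were searched over the 250 bases before the start, and the motif is its own reverse complement, so both strands are covered. It was found in 5 of the 14 promoter-matched genes among the 18 cathepsin and lysosomal genes that rose, in 10.9% of 5820 tested genes and in 6.86% of all 27025 genes with a promoter. Whatever their change, 5 of 13 promoter-matched cathepsin genes (38.5%) and 8 of 34 lysosomal genes (23.5%) held it, and no share was tested against another. Of all the genes higher in the members, 13.9% held it, and of those lower, 11.4%. The stretches that carry it in the 5 genes, and in the label marker Ctsd, are shown with the motif in capitals.
Ctsd, chr7:142387908-142387937, minus strand, first motif base 98 bases before the start: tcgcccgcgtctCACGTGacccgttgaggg
Ctsa, chr2:164833749-164833772, plus strand, 12 bases before the start: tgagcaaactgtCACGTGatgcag
Gla, chrX:134601182-134601211, minus strand, 194 bases before the start: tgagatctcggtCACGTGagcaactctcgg
Gaa, chr11:119267811-119267840, plus strand, 140 bases before the start: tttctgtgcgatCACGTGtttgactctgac
Naglu, chr11:101070009-101070038, plus strand, 73 bases before the start: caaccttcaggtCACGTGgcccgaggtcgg
Lamp1, chr8:13159088-13159117, plus strand, 61 bases before the start: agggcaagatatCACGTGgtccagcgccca
Ctsd and Gla each held the motif at 2 places in this window and Lamp1 at 4, of which 1 each is printed, while the Gpnmb window held none. These matches describe the letters of the promoters and were not measured as sites.

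Of 13 tested genes of lipid uptake and storage, 8 were higher and none lower, with a median of 0.65. Lgals3, a lectin that binds damaged lysosomes, rose by 1.71 (SE 0.17). Cd9, a tetraspanin, rose by 1.57 (SE 0.20), and Trem2, a receptor for lipids and lipoproteins, by 1.17 (SE 0.18). Each of these was higher in the members of all 8 mice. Spp1, a secreted matrix protein, rose by 1.52 (SE 0.29), but 3 cells held 56.3% of its UMIs in the members, it was higher in 5 of 8 mice, and DESeq2 did not call it (adjusted p = 0.477).

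Of 13 genes of cholesterol efflux and lipoproteins, 6 were higher and 1 lower. Apoe, the lipoprotein that carries cholesterol out of macrophages, was higher in the members of every mouse, at 48384 to 82115 against 21312 to 35348 CPM in WT mice. In CaMKK2 KO mice it was at 995 to 19764 against 782 to 2922 CPM. The log2 fold change was 1.51 (SE 0.19, edgeR adjusted p = 1.03e-07), and without the mouse as a block it was not called (adjusted p = 0.432). Nceh1, which frees stored cholesterol from its esters, rose by 1.39 (SE 0.27). Ch25h, which makes 25-hydroxycholesterol, was lower at -3.13 (SE 0.47), with UMIs in 5 members. None of 16 genes of cholesterol synthesis was called, with a median of -0.17. Of 15 tested genes of the disease-associated microglia list, which shares Apoe, Trem2, Spp1, Cd9, Cd63 and Ctsb with the lists above, 10 were higher and none lower.

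The 10 genes furthest above the other macrophages by the named-gene rule were Anpep, Sgk1, Timp2, Mgst1, Slpi, Gpr137b, Cd63, Fbxo32, Lgals3 and Cd37. Anpep (chromosome 7, 79821803 to 79861059), an aminopeptidase of the cell surface, was at 55.8, 96.3, 133 and 126 CPM in the members of WT mice 1 to 4 and at 183, 379, 137 and 284 CPM in those of CaMKK2 KO mice 1 to 4. In the other macrophages it was at 11.8, 19.9, 20.4 and 17.8 CPM and at 44.7, 111, 48.2 and 63.3 CPM. Members were higher in all 8 mice, with a log2 fold change of 2.18 (SE 0.21, edgeR adjusted p = 1.63e-10). Sgk1, a kinase induced by glucocorticoids and growth factors, was at 454 to 997 CPM against 95.9 to 264, higher by 2.17 (SE 0.19). Timp2, an inhibitor of matrix metalloproteinases, was at 142 to 614 CPM against 38.9 to 123, higher by 2.12 (SE 0.18). When cells with homeostatic genes were admitted, Timp2 was higher by 0.97 (edgeR adjusted p = 0.00046). For Sgk1 and Timp2 no mouse's members overlapped the other macrophages.

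Gpr137b, a lysosomal membrane protein, rose by 1.95 (SE 0.22) and Cd37, a tetraspanin, by 1.66 (SE 0.23). When cells with homeostatic genes were admitted, Cd37 rose by 0.61 (edgeR adjusted p = 0.018). Slpi, a secreted protease inhibitor, and Fbxo32, a ubiquitin ligase subunit, rose by 2.09 (SE 0.44) and 1.73 (SE 0.39), but they were detected in 17 and 16 of 58 members. Slpi was not called without the mouse as a block (adjusted p = 0.167). Of the growth factors, Csf1, Pdgfa and Vegfb were higher and Tgfbi lower, of 10 tested, and Tgfbi lost its call with TMM (adjusted p = 0.0575), with DESeq2 (0.138), without the block (0.306) and without CaMKK2 KO mouse 1 or 4 or WT mouse 1 or 2 (up to 0.147 in these 4 fits). In Csf1, 3 cells held 75% of the members' UMIs and the members were higher in 4 of 8 mice. DESeq2 called neither Csf1 (adjusted p = 0.466) nor Pdgfa (0.647), and without WT mouse 3 or WT mouse 4 Pdgfa was not called (adjusted p up to 0.431). Iron storage was represented by the ferritin chains Ftl1 and Fth1, higher by 0.79 and 0.74 in all 8 mice. Neither ferritin gene was called with TMM scaling (adjusted p = 0.26 and 0.406).

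**Figure D4:**
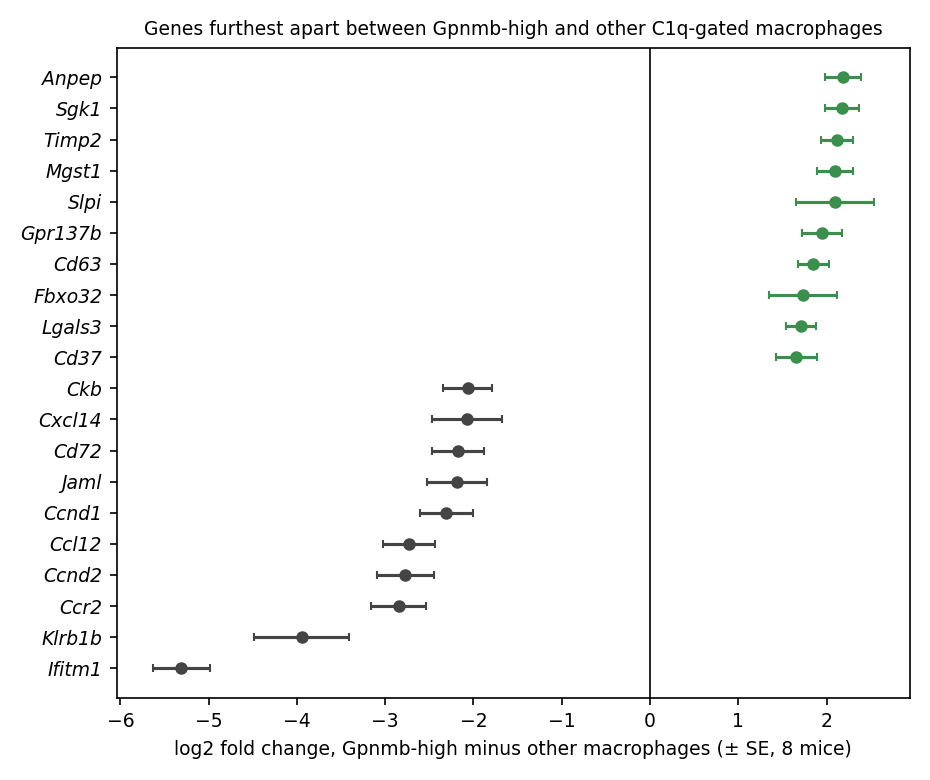
Log2 fold change between Gpnmb-high and other C1q-gated macrophages with its standard error (edgeR, 8 mice, mouse as block) for the 10 highest and 10 lowest genes of the named-gene rule. Ifitm1 is lowest at -5.31 and Anpep highest at 2.18.

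Of 5 tested monocyte markers, 2 were lower in the members, Ccr2 and Plac8, and none was higher. Among genes of the named-gene rule, which asks for a mean of 50 CPM or more, the lowest was Ifitm1. Ifitm1, an interferon-induced membrane protein of monocytes, was at 0, 0, 13.3 and 11.4 CPM in the members of WT mice 1 to 4 and at 0, 28.1, 10.6 and 0 CPM in CaMKK2 KO mice 1, 2, 3 and 4. The other macrophages held 755, 604, 255 and 290.3 CPM in WT mice 1 to 4, and 423, 803, 464 and 646 CPM in CaMKK2 KO mice 1 to 4, with no overlap. The log2 fold change of Ifitm1 was -5.31 (SE 0.32, edgeR adjusted p = 8.33e-17). Ccr2, the receptor that brings monocytes out of the marrow, was at 0 to 211 CPM against 283 to 595 CPM (-2.85, SE 0.32, adjusted p = 6.8e-09). Plac8, another monocyte gene, fell by 1.81 on the log2 scale. Without the mouse as a block its estimate was -1.69 and it was not called (adjusted p = 0.0875). Ly6c2 was not among the called genes (0.11, adjusted p = 0.856).

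Of 14 tested chemokines, 9 were lower and none higher, with a median of -1.17. Ccl12, a ligand of Ccr2, was lower by a log2 fold change of -2.73 (SE 0.30), with 3 cells holding 68.6% of the members' UMIs. Cxcl9 and Cxcl10, which attract T cells through Cxcr3, were at -1.78 (SE 0.30) and -2.09 (SE 0.38). Neither Cxcl9 nor Cxcl10 was called without the mouse as a block (adjusted p = 0.228 and 0.227), at estimates of -1.69 and -1.46. Cxcl9 was also not called when cells with homeostatic genes were admitted (-0.72, adjusted p = 0.0891). Of 24 interferon response genes, those 2 chemokines and Ly6a were lower and none was higher. Ly6a was not called without the block (adjusted p = 0.572) or when cells with homeostatic genes were admitted (0.354).

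Of 15 cell cycle genes tested, 10 were lower and none higher, with a median of -2.18. Ube2c, a ubiquitin enzyme of mitotic exit, had 0 UMIs in the members, which allows up to 3.46 CPM by counting error alone, against a pooled 26.4 CPM in the other macrophages. Counting error alone would put it at least 7.64-fold lower, by a floor of 3 counts over all members. That bound leaves out the spread between cells and mice. The log2 fold change of Ube2c was -2.63 with DESeq2 and -2.47 when cells with homeostatic genes were admitted. Without the block Ube2c (adjusted p = 0.27), Ccnb2 (0.143), Cenpf (0.239) and Birc5 (0.112) were not called. Top2a, a topoisomerase of dividing cells, was seen in 6 members and was at -2.74 (SE 0.47). The cyclins Ccnd2 and Ccnd1 were at -2.77 (SE 0.32) and -2.31 (SE 0.30). Other genes lowest by the rule were Klrb1b, a lectin-like receptor with UMIs in 1 member, Jaml, an adhesion molecule, Cd72, a B cell and macrophage receptor, Cxcl14, a chemokine, and Ckb, a creatine kinase, at -3.95 to -2.07. Jaml was not called when cells with homeostatic genes were admitted, nor Cxcl14 without the block or at 3 Gpnmb UMIs.

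Several other programs showed few or no calls. Of 19 tested genes of hypoxia and glycolysis, 16 of cholesterol synthesis and 5 of the osteoclast type, none was called, and the osteoclast phosphatase Acp5 was at -0.03 (adjusted p = 0.976). Of 13 genes of dead-cell uptake and scavenging, 2 were higher, Anxa1 and Lrp1, neither of which was called with DESeq2. Anxa1 was not called without CaMKK2 KO mouse 1 (adjusted p = 0.0984), and Lrp1 lost its call in 5 of the 8 fits that left out a mouse (adjusted p up to 0.174). Of 12 genes of arginine metabolism and checkpoints, Slc7a2, a transporter of arginine, was higher at 1.93 (adjusted p = 0.000306). Without the block its estimate was 1.64 and it was not called (adjusted p = 0.101).

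The second question was how CaMKK2 KO members differed from WT members. With 18 and 40 cells, 559 genes had the 200 UMIs needed for the test, and 2 were called by edgeR (0.358%), 1 higher and 1 lower (0.179% each), with 78 (14%) at an unadjusted p under 0.05. DESeq2 called 18 and a filter of 50 UMIs gave 20. Mgst1 (chromosome 6, 138140316 to 138156755), a membrane enzyme that detoxifies lipid peroxides with glutathione, was at 167, 193, 75.3 and 129.7 CPM in the members of WT mice 1 to 4. In CaMKK2 KO mice 1 to 4 it was at 504, 407, 612 and 427 CPM. The genotypes did not overlap, and the log2 fold change was 1.92 (SE 0.33, edgeR adjusted p = 0.0362). AA467197 (chromosome 2, 122636986 to 122641191), a small mitochondrial protein gene, was at 502, 181, 731 and 263 CPM in WT members. In CaMKK2 KO members it was at 22.9, 0, 42.2 and 0 CPM, a change of -4.15 (SE 0.71, adjusted p = 0.0362).

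Neither call held without CaMKK2 KO mouse 4 (adjusted p = 0.0905 for both) or without WT mouse 1 (0.0914 for both), and in these fits their estimates were 1.95 and 2.0 for Mgst1 and -4.11 and -4.09 for AA467197. AA467197 also lost its call without CaMKK2 KO mouse 1, 2 or 3 or WT mouse 4, with an adjusted p of up to 0.251. When cells with homeostatic genes were admitted, its estimate moved to -2.49 (adjusted p = 0.0502). Mgst1 fell under the count filter when any of the remaining mice was left out. In the other macrophages Mgst1 was at 29.8 to 56.9 CPM in WT mice, and at 72.6 to 117 CPM in those lacking CaMKK2. The difference in genotype effect between the cell groups was 0.98 for Mgst1 (adjusted p = 0.793) and -2.30 for AA467197 (adjusted p = 0.176).

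Apoe was at 67813, 82115, 58728 and 48384 CPM in WT members and at 9685, 2625, 19764 and 995 CPM in CaMKK2 KO members, without overlap. The change of -2.92 (SE 0.71) did not pass adjustment (edgeR adjusted p = 0.119). T cells, which should lack the gene, had Apoe at 320.5 CPM in WT mice and at 28.5 CPM in CaMKK2 KO mice. Both values were below those of every mouse's members of that genotype, and the part of free RNA in the difference was not tested.

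Genes of MHC class II present peptides to CD4 T cells. H2-Ab1 was at 167, 217, 2673 and 2380.3 CPM in the members of WT mice 1 to 4 and at 13016, 16708, 12810.5 and 19767 CPM in those of CaMKK2 KO mice 1 to 4. WT mice 1 and 2, with 3 and 6 members, were the lowest. The log2 fold change was 3.45 (SE 0.76, edgeR adjusted p = 0.119). The members of WT mice 1 and 2 were also lowest in summed interferon response genes, at 753 and 1757 CPM. Immediate early genes, led by Fos, summed to 18474 CPM in WT mouse 1 members and 7667 to 10637 CPM in the other mice. The part of these differences in the MHC class II values was not tested. Of 6 tested MHC class II genes all were above 0, with a median of 2.98 against 0.04 over the 559 genes, and in 5 of them the genotypes did not overlap, as in 12.5% of all tested genes. None of the 6 passed adjustment, H2-DMb1 coming nearest (2.58, SE 0.49, adjusted p = 0.0583). Other lists also leaned to 1 side, with no gene called in them. All 3 monocyte markers tested were above 0 (median 1.54), against 51.7% of all tested genes. So were all 10 genes of hypoxia and glycolysis (median 0.55) and 85.7% of 7 interferon response genes. The hypoxia and glycolysis genes summed to 4442 to 7850 CPM in WT and 8073 to 12656 CPM in CaMKK2 KO members. All 4 matrix remodelling genes were below 0. No list was tested as a set.

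The third question was whether the effect of genotype differed between the members and the other macrophages. Of 7162 genes, 9 were called for this difference (0.126%), 7 above 0 (0.0977%) and 2 below (0.0279%), and 4 of them were MHC class II genes. An unadjusted p under 0.05 was found for 377 (5.26%). In WT mice the members held less H2-Ab1 than the other macrophages of the same mouse, which were at 2309, 4923, 5058 and 5111 CPM. In CaMKK2 KO mice the other macrophages were at 13323, 15881, 12039.8 and 14394 CPM, much like the members. The difference of the genotype effects was 2.32 (SE 0.41, edgeR adjusted p = 0.000991). H2-Eb1, H2-Aa and Cd74, the invariant chain, followed at 2.31, 2.27 and 2.15.

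These calls depended on single mice. Without CaMKK2 KO mouse 4 no gene was called, with H2-Ab1 at 2.21 and an adjusted p of 0.16. Without WT mouse 1 it was at 2.01 (0.0527), and H2-Eb1, H2-Aa and Cd74 were not called either. DESeq2 called no gene (H2-Ab1 2.28, adjusted p = 0.848), TMM scaling did not call these 4 genes (H2-Ab1 2.03, 0.399), and a comparison that admitted cells with homeostatic genes called no gene (H2-Ab1 1.27, 0.455). With all mice pooled in the cell group test, 6 of 10 MHC class II genes were lower in the members, with a median of -1.03. Without the block H2-DMb1 (adjusted p = 0.277), H2-Eb1 (0.863) and Ciita (0.413) were not called, and H2-Eb1 was not called with DESeq2 (0.238) or without WT mouse 1 (0.111). Ciita was also not called in thinned cells (0.0772) or without CaMKK2 KO mouse 3 or WT mouse 4 (up to 0.102). H2-Ab1 itself was not called (-0.88, adjusted p = 0.0527).

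Cstb, the cathepsin inhibitor, was also called for the difference. In CaMKK2 KO mice members were at 3045, 2078, 1562 and 3982 CPM against 466 to 853 in the other macrophages. In WT mice they were at 391, 855, 939.6 and 1102 CPM against 501 to 665. The difference was 1.44 (SE 0.33, edgeR adjusted p = 0.0435), and 1.35 (adjusted p = 0.256) without CaMKK2 KO mouse 4. It was not called without CaMKK2 KO mouse 1 or WT mouse 1 or 3, nor under most other settings. Cd72 went the other way at -3.38 (SE 0.68), with 10.6 to 22.9 CPM in the members of CaMKK2 KO mice 1 to 3 and 0 in those of mouse 4. In the members of WT mice 1 to 4 it was at 0, 301, 332 and 122 CPM, and the other macrophages held 218 to 652 CPM in all 8 mice. Cd72 was not called without CaMKK2 KO mouse 4 (adjusted p = 0.16), in thinned cells (0.124), with DESeq2 (0.848) or with a Gpnmb threshold of 3 or 10 UMIs. When cells with homeostatic genes were admitted, its difference was -0.31 (adjusted p = 1).

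Lpl and Cxcl2 had few UMIs behind their calls. Lpl stood at 607 CPM in the members of CaMKK2 KO mouse 1 and at 0 in those of the other CaMKK2 KO mice, and its difference of 3.95 became -5.38 without that mouse (adjusted p = 0.998). Cxcl2, a neutrophil chemokine, was at 721, 28.1, 243 and 711 CPM in CaMKK2 KO members and at 0 to 84.3 CPM in WT members, a difference of 3.04 (SE 0.57). It lost its call without CaMKK2 KO mouse 1 or 4 (adjusted p up to 0.194), with DESeq2 and in thinned cells.

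**Figure D5:**
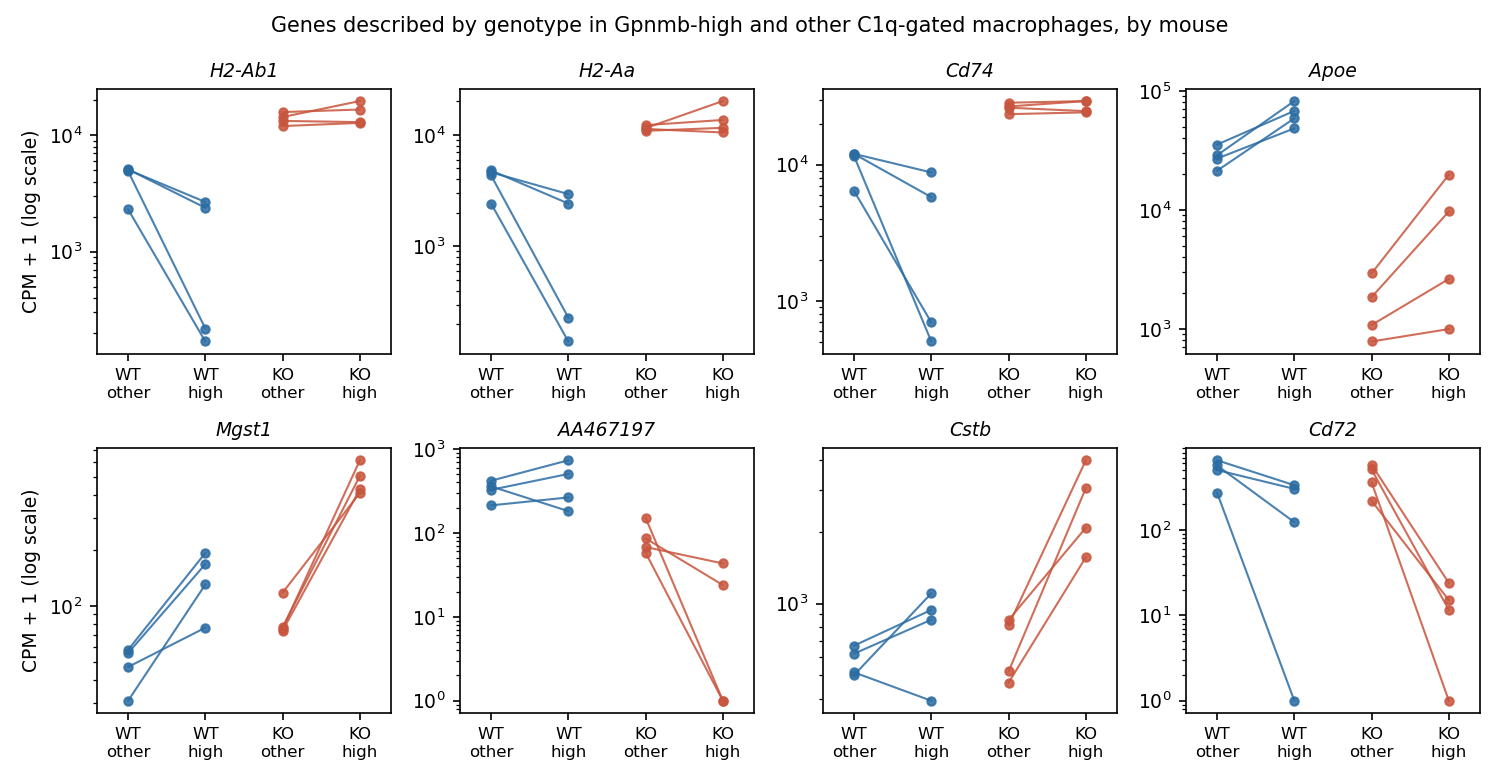
Level of 8 genes in CPM plus 1 (log scale) in the summed cells of each mouse, with lines joining the other C1q-gated macrophages and the Gpnmb-high cells of 1 mouse, WT in blue and CaMKK2 KO in red. H2-Ab1, H2-Aa and Cd74 fall from other to Gpnmb-high cells in the WT mice and lie close together in the CaMKK2 KO mice, and Apoe rises in all 8.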

How the data were processed

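The authors demultiplexed reads with bcl2fastq 2.20 and aligned them to mm10 with Cell Ranger 4.0.0 and STAR 2.7.5c, per the submitters' processing notes. The deposited values are raw UMI counts per gene and barcode, with hashtags as features, without normalization. Members and gene lists were chosen with earlier results of these data known. Hashtags were assigned with HTODemux in Seurat 5.3.0 (quantile 0.99). UMIs were summed per mouse and cell group and tested with edgeR 4.0.16 (quasi-likelihood, library size as total UMIs, genes with at least 200 UMIs, adjusted p of 0.05). The sums of 1 to 16 cells differ in precision, and intervals and floors cover counting error only.

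Named genes were Camkk2, the markers and genes of the rule, for each test the 10 highest and 10 lowest called genes at least 2-fold apart, with a mean of at least 50 CPM in 1 group and the same sign in all 8 mice or no overlap between genotypes, and up to 4 called genes per list. Other genes named were chosen after their values were seen. Of the list genes, 2 were not analysed here, and 1 gene called for the difference in genotype effect is counted but not reported here. On simulated counts with 200 changed genes the cell group test, on 7162 genes, recovered 46% of 2-fold and 87% of 4-fold changes (7.64% of calls false), and the difference test, on 7162 genes, 2% and 21%. The genotype test, on 555 genes, recovered 51% and 90%. There the 200 changed genes were a large part of the 555, whereas the real test called 2 of 559. Sums of few and of many cells were also drawn with the same spread per gene. The rates of the genotype test therefore need not hold for the real members. Alternatives were DESeq2 1.42.0, TMM scaling, other count filters and Gpnmb thresholds, thinning, Scrublet (scanpy 1.11.5), and leaving out each mouse. Of 31253 gene identifiers, 31184 were matched to GENCODE M21 for positions.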

Additional observations from a re-analysis of the deposited data

Results flagged for a closer look

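Among 70 groups of 4 mice examined for a mouse apart from the rest, 6 had one, and chance gives about 1 in 20. In WT members, Sgk1 in mouse 1 reached 893 CPM, Klrb1b in mouse 3 reached 13.3 CPM and Lpl in mouse 4 reached 80.1 CPM. In CaMKK2 KO members, Slpi reached 284 CPM and Fbxo32 427 CPM in mouse 4, whose value is 1 cell. Lpl reached 607 CPM in mouse 1.

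For 8 genes the effect of genotype in the members differed from that in the other macrophages by the edgeR test of the difference. These differences (log2) were 3.95 for Lpl, 3.04 for Cxcl2, 2.32 for H2-Ab1, 2.31 for H2-Eb1, 2.27 for H2-Aa, 2.15 for Cd74, 1.44 for Cstb and -3.38 for Cd72. None was called without CaMKK2 KO mouse 4.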

How the results depend on the processing

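The share of Gpnmb-high cells kept its direction under every alternative run, by -5.00 to -2.32 percentage points when 1 mouse was left out and by -1.96 when cells with homeostatic genes were admitted, a setting added after the data were seen. Thinning to 10000 UMIs gave -4.98 (exact permutation p = 0.0286), with the only member of CaMKK2 KO mouse 4 left out for its depth. For the genes higher and lower in the members, thinning called 111 and 170, with fewer cells and genes tested. The fit with no replicate block called 139 and 140. DESeq2 called 127 lower genes, and the setting without the homeostatic condition 406. Without that condition other genes had smaller log2 fold changes too, among them Naglu (0.66), Ifitm1 (-3.61), Ccnd2 (-1.22) and Ccnd1 (-1.22), still called. Leaving out 1 mouse gave 142 to 177 higher and 199 to 255 lower genes. Of the 460 calls, 274 were shared with DESeq2, 401 with TMM scaling and 252 with the fit that had no block. The cause of these changes was not tested.

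The 2 genotype calls in the members became 0 with at least 10 Gpnmb UMIs, 1 in thinned cells, 18 with DESeq2, 20 with 50 UMIs per gene, 82 with no filter and 10 without the homeostatic condition, and 0 to 1 with a mouse left out. The 9 differences became 0 with DESeq2, 15 with 50 UMIs per gene and 0 without the homeostatic condition, and 0 to 22 with a mouse left out. Without the homeostatic condition Olfml3 and Egr1, called higher in the members at 0.79 (adjusted p = 0.0325) and 0.89 (0.00687), turned to -0.37 and -0.56. Egr1 was also not called at 3 or 10 Gpnmb UMIs, with DESeq2 (0.0869), without the block (0.262) or without WT mouse 1 (0.106). Nr4a1, another immediate early gene, was lower at -1.08 (edgeR adjusted p = 0.00385). It was not called in thinned cells (0.131), without the block (0.387) or without the homeostatic condition (0.17). Without CaMKK2 KO mouse 1 the difference for Lpl turned to -5.38, in a range up to 6.75 with a mouse left out. No paired analysis was possible between genotypes because hashtag numbers do not link WT and CaMKK2 KO mice. A single member in CaMKK2 KO mouse 4 and 3 in WT mouse 1 limit every genotype value.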
